A study of Rattus norvegicus with 8 samples.

Results

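The genes described here are the aggrecan family (lecticans) and the hyaluronan matrix, 10 genes that were chosen by name from a table of 37209. They comprise the lecticans Acan and Vcan, the link proteins Hapln1 and Hapln3, the hyaluronan synthases Has1, Has2 and Has3, the hyaluronidase Hyal2, and the hyaluronan binding proteins Cd44 and Tnfaip6. All 10 symbols were found, and 9 genes had enough counts for the test, with Hapln1 as the exception. The samples were carotid arteries of male Sprague-Dawley rats that weighed 400 g on average. In each rat the left carotid artery was injured on its luminal side with a balloon catheter, and both carotid arteries were taken 2 weeks later. The 4 injured arteries were compared with 4 undamaged right carotid arteries, which are called control arteries. No genetic change is named for either group. The age of the rats is not given in the sources used here, and a contralateral artery comes from an operated animal and not from an untouched one. mRNA of the whole artery wall was sequenced, so that fewer cells of a type and less RNA per cell cannot be told apart.

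Hyaluronan is a long sugar polymer that the synthases extrude through the plasma membrane and that hyaluronidases cut. Lecticans are large chondroitin sulfate proteoglycans whose head domain binds hyaluronan, and link proteins lock this complex into a hydrated gel. Versican, the product of Vcan, is the lectican known from the artery wall and its neointima, whereas aggrecan, the product of Acan, is best known from cartilage, where the gel carries load.

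Each library held between 11459632 and 16658089 counts. Levels are given as CPM, read counts scaled to the library size and TMM factors (trimmed mean of M values), and the floor of 3 counts was 0.18 to 0.262 CPM, which covers counting error only. The defining genes of contractile smooth muscle were abundant in all 8 arteries, with a summed level of 11506 CPM or more. Control artery 4 and injured artery 3 stood apart through a list of 10 sympathetic neuron genes. Their summed level was 12539 CPM in control artery 4 and 3718 CPM in injured artery 3, against 9.76 to 14.8 CPM in the other controls and 23.9 to 240 CPM in the other injured arteries. The extraction text in the labels names a brain region and not an artery. Results that rest on these arteries are therefore also given without them.

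Of the 9 members tested, 2 were called, Acan and Has2, and both were higher after injury. A gene counted as called where edgeR's quasi-likelihood test gave an adjusted p (Benjamini-Hochberg, over the 14359 genes tested) under 0.05 and the groups differed more than 2-fold. SE stands for the standard error of a log2 fold change. Across all genes tested, 8.31% were called higher and 2.57% lower. The median log2 fold change was 0.42 over the 9 members and -0.06 over all genes tested, and 7 of the 9 had a positive value against 6494 of all 14359. The medians were 0.11 and 0.03 without control artery 4, and there 5 of the 9 members and 7706 of 14758 genes had a positive value. The members called were also 2 with DESeq2 and 2 with the adjusted p alone, and 1 (Acan) with the replicate number as a block, where 12.9%, 17.2% and 8.27% of all genes were called. In only Acan and Has2 did the CPM of the injured and control arteries not overlap, where 14.2% of all genes tested were higher without overlap and 9.51% were lower.

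Acan, which encodes aggrecan, had 2.88, 1.48, 1.73 and 0.208 CPM in control arteries 1 to 4. It had 31.7, 208, 72.8 and 154 CPM in injured arteries 1 to 4. Every injured artery was thus above every control, and the injured arteries also differed widely among themselves, with artery 2 highest and artery 1 lowest. The mean rose from 1.57 ± 1.10 to 117 ± 79.4 CPM (SD, n = 4 per group), and the log2 fold change was 6.20 with an SE of 0.87 (edgeR adjusted p = 0.00265). An exact permutation test on log2 CPM gave p = 0.0286, two-sided, the smallest p that 4 arteries against 4 allow. Without control artery 4, in which 3 reads were counted on the gene, the log2 fold change was 5.82 and Acan was called.

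Vcan, the other lectican of the list, had 576, 644, 587 and 222 CPM in control arteries 1 to 4. After injury it had 496, 685, 381 and 479 CPM. The groups overlapped, and the means of 507 ± 193 and 510 ± 127 CPM (SD, n = 4 per group) lay within the spread of either group. The log2 fold change was 0.01 with an SE of 0.34 (edgeR adjusted p = 0.989), and its sign depended on the fit. Without control artery 4 it was -0.24, with an SE of 0.18 (edgeR adjusted p = 0.353).

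To show what lies before the start sites of the 2 lecticans, and of Tnfaip6 for comparison, short stretches were taken from the RefSeq promoter windows, which held 7 of the 10 members. The windows of build GRCr8 reach from 250 bases before to 50 bases after the start. Hapln3, Has2 and Has3 had no entry. The capitals mark a match to the motif named.
Acan, GC box, chr1:142390896-142390925, plus strand: ccctcccctcccCCGCCCgcccctatgtat
Vcan, GC box, chr2:22596012-22596041, minus strand: gggagctcctttCCGCCCctccgcctgttt
Tnfaip6, AP-1, chr3:56911195-56911224, plus strand: gccaatgcaaaTGAGTCAgagggcttgctt
The letters searched on both strands were GGGCGG for the GC box, TGANTCA for AP-1, TGACG for CRE, CCAAT for the CCAAT box, TATAAA for the TATA box, GTCTAGAC for SMAD, ACAAAG for SOX, and the CArG box. Acan held the GC box at 3 places, of which the first 2 overlap by 2 bases, and no match to the other 7 motifs. Vcan had windows for different start sites, so that its GC box lay at -74 or -172. Its windows also held CRE letters, at -46 and -27, and the CCAAT box, at -167. Tnfaip6 also held the CCAAT box, at -202, inside the stretch shown, and at -131. Of 33469 promoter windows, 33.1% held the GC box, 7.33% the AP-1 letters, 21.2% the CRE letters and 37.5% the CCAAT box. These matches serve as a description only. The GC content of the Acan window was 73.0%, against a median of 51.7% over all windows.

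**Figure D1:**
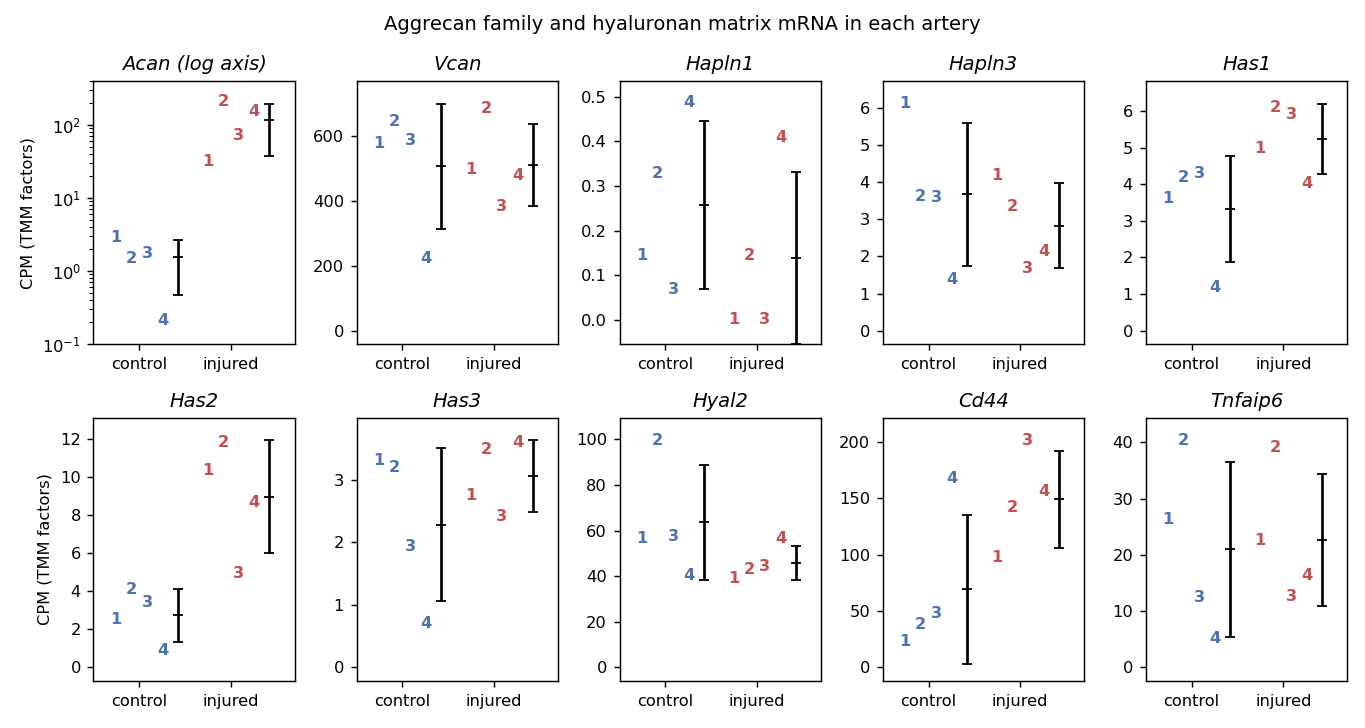
Level of the 10 genes in each artery, in CPM with TMM factors on linear axes, except for Acan on a log axis. The digits are the artery numbers (blue for control, red for injured), and the bars show mean ± SD (n = 4). Acan and Has2 separate the groups, and control artery 4 is the lowest of all arteries in 7 panels and the highest control for Cd44 and Hapln1.

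The link proteins stabilize the bond between a lectican and hyaluronan, and each lies next to a lectican in the rat genome. In the GRCr8 annotation, Hapln3 is the protein-coding gene that follows Acan, and Hapln1 the one before Vcan. Hapln3 had 6.12, 3.61, 3.60 and 1.39 CPM in control arteries 1 to 4 and 4.19, 3.34, 1.68 and 2.13 CPM in the injured arteries. The groups overlapped, and the log2 fold change of -0.38 (SE 0.47, edgeR adjusted p = 0.628) did not pass. The highest Hapln3 level was in control artery 1 and the lowest in control artery 4. Mfge8, which follows Hapln3 in the annotation and was picked after its values were seen, had a log2 fold change of -0.21 (edgeR adjusted p = 0.702) and was not called.

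Hapln1, the link protein of cartilage, was near the floor. It had 2, 4, 1 and 7 counts in control arteries 1 to 4 and 0, 2, 0 and 5 counts in injured arteries 1 to 4. It did not pass the filter on low counts, and a change was not detectable at this depth. DESeq2, which tested it, gave a log2 fold change of -0.96 with an SE of 1.44 (adjusted p = 0.709 from DESeq2).

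The hyaluronan synthases are membrane enzymes that build the polymer from UDP-sugars. Has2, the synthase required for embryonic heart development, had 2.52, 4.10, 3.40 and 0.903 CPM in control arteries 1 to 4. It had 10.3, 11.8, 4.94 and 8.67 CPM in injured arteries 1 to 4. All injured arteries lay above all controls, although injured artery 3 came close to control artery 2. The mean rose from 2.73 ± 1.38 to 8.95 ± 2.96 CPM (SD, n = 4 per group), and the log2 fold change was 1.71 with an SE of 0.47 (edgeR adjusted p = 0.0397). The exact permutation test gave p = 0.0286, two-sided. The call was close to the threshold. With 1 artery left out at a time, Has2 was called in 2 of 8 fits, those without control artery 4 and without injured artery 3, while its log2 fold change stayed between 1.42 and 1.97. The call was lost without control artery 1, 2 or 3 and without injured artery 1, 2 or 4. In those fits the edgeR adjusted p was between 0.0532 and 0.110. Leaving out control artery 4 and injured artery 3 together, a setting added after seeing the data, gave 1.62 (SE 0.25, edgeR adjusted p = 0.0021), which was called. In the GRCr8 annotation Has2 overlaps the lncRNA LOC108351495, and reads of the 2 genes could not be told apart if strand was not used in the counting.

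Has1 had 3.60, 4.18, 4.30 and 1.18 CPM in control arteries 1 to 4 and 4.96, 6.09, 5.90 and 4.01 CPM in the injured arteries. Injured artery 4 lay within the range of the controls, and the log2 fold change of 0.66 (SE 0.39, edgeR adjusted p = 0.291) was not called. Has3 had 0.695 to 3.31 CPM in the controls and 2.41 to 3.60 CPM after injury. Its log2 fold change of 0.42 (SE 0.45, edgeR adjusted p = 0.566) was not called either. The values were 0.38 for Has1 and 0.11 for Has3 without control artery 4. The level of Has1 and Has3 in that artery was 0.293 and 0.247 times the mean of the other controls.

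Hyal2, a membrane-anchored hyaluronidase, had 56.6, 99.6, 57.6 and 40.4 CPM in control arteries 1 to 4. In the injured arteries it had 39.0, 42.8, 44.4 and 56.5 CPM. The groups overlapped through control artery 4, the lowest control. The log2 fold change of -0.48 (SE 0.27, edgeR adjusted p = 0.268) was not called. Without control artery 4, all injured arteries were below the remaining controls, the highest of them only just (56.5 against 56.6 CPM), and the log2 fold change was -0.65 (SE 0.22, edgeR adjusted p = 0.0607). For comparison, 18.5% of all genes tested lay lower without overlap when control artery 4 was set aside.

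Cd44, the main cell surface receptor for hyaluronan, had 23.1, 37.6, 48.1 and 167 CPM in control arteries 1 to 4. It had 97.1, 142, 201 and 156 CPM in injured arteries 1 to 4. Controls 1 to 3 were below all injured arteries, whereas control artery 4 was above all but injured artery 3. With all 8 arteries, the log2 fold change of 1.11 (SE 0.59, edgeR adjusted p = 0.242) was not called. Without control artery 4, it was 2.03 (SE 0.31, edgeR adjusted p = 0.00262) and was called, where 12.3% of all genes tested were called higher. Leaving out injured artery 3 as well gave 1.86 (SE 0.27, edgeR adjusted p = 0.00158), where that share was 12.5%. With controls 1 to 3 alone, 21.9% of all genes tested lay higher after injury without overlap, and Cd44 was among them. Leukocytes also carry Cd44. Of the 10 leukocyte genes listed, 9 were tested and 8 were called higher, and their summed level was 466 to 654 CPM after injury against 98.2 to 137 CPM in the controls, among which control artery 4 had 101 CPM. Cybb of this list was at 0 in all 8 libraries. The summed Schwann and satellite glia genes were 474 CPM in control artery 4 and 50.1 to 502 CPM in the other controls. After injury they were 226 to 1288 CPM, with injured artery 3 highest. The part of leukocytes or glia in the level of Cd44 was not tested.

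Tnfaip6 encodes TSG-6, a secreted protein that binds hyaluronan and transfers heavy chains of inter-alpha-inhibitor onto it. Its CPM was 26.2, 40.4, 12.3 and 5.07 in control arteries 1 to 4 and 22.5, 39.2, 12.5 and 16.3 in injured arteries 1 to 4. The range within either group was wider than the difference between the groups. The log2 fold change was 0.11 (SE 0.61, edgeR adjusted p = 0.921), and it was -0.22 without control artery 4.

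Control artery 4 had an unusual profile over the members. It was the lowest of all 8 arteries for 7 of them, namely Acan, Vcan, Hapln3, Has1, Has2, Has3 and Tnfaip6, where 26.5% of all genes tested had their lowest value in that artery. Vcan was 0.368 times, Has2 0.271 times and Tnfaip6 0.193 times the mean of the other controls, while Cd44 was 4.61 times and Hapln1, at 7 counts, 2.70 times that mean, where 39.4% of all genes tested had their highest control value in that artery. Summed contractile smooth muscle genes were 18828 CPM there against 40667 to 54585 CPM in the other controls, and the Schwann and satellite glia genes were 474 CPM against 50.1 to 502 CPM. The part of the neuron, glia and smooth muscle genes in the levels of the members was not tested.

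**Figure D2:**
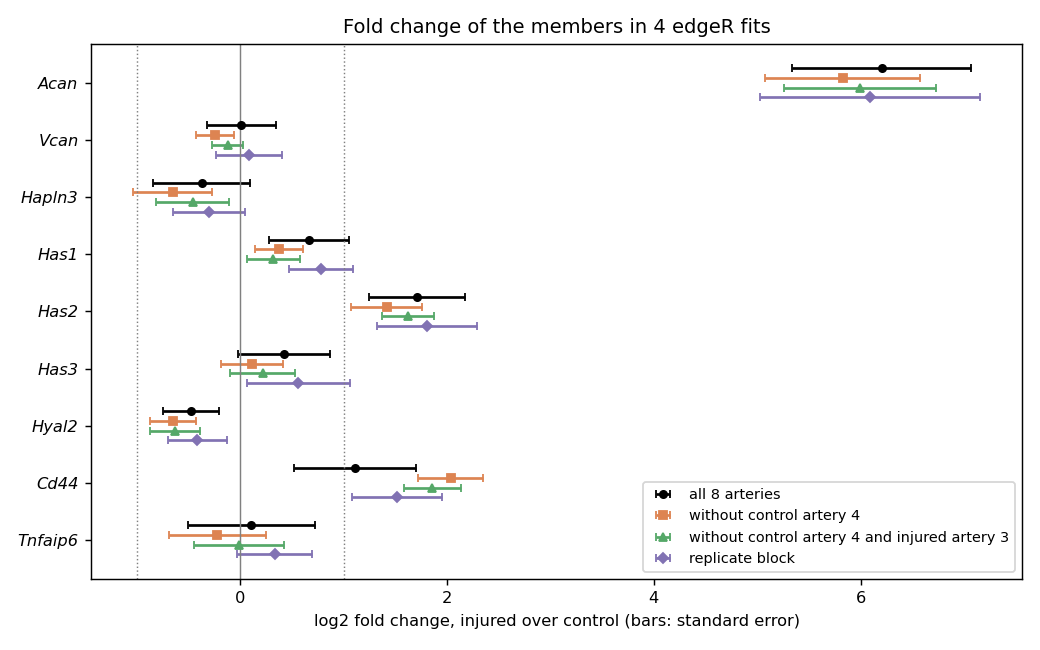
Log2 fold change (injured over control) of the 9 members tested, with standard errors, in 4 edgeR fits: all 8 arteries, without control artery 4, without control artery 4 and injured artery 3, and with the replicate number as a block. The dotted lines mark a fold change of 2. Acan stays between 5.82 and 6.20, Cd44 moves from 1.11 to 2.03 once control artery 4 is left out, and Vcan lies between -0.24 and 0.08.

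To ask whether one member changed more than another, ratios of counts were formed within each artery, in which the size of the library cancels. Of 4 ratios, 2 did not overlap between the groups. The log2 ratio of Acan to Vcan was -9.83 to -7.63 in the controls and -3.97 to -1.64 after injury, a difference of 6.21 between the means. The log2 ratio of the summed synthases to Hyal2 was -3.85 to -2.58 in the controls and -1.79 to -0.999 after injury, a difference of 1.62. For both, the exact permutation test gave p = 0.0286, two-sided, the smallest the design allows, and 0.0571 after adjustment over the 4 ratios. Acan and Has2 were known to differ when the ratios were chosen, so these p-values are not independent of the levels above. Counts of a gene depend on its length, so the ratios are compared between groups and do not say which mRNA is the more abundant.

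The log2 ratio of Has1 to Has2 was 0.51, 0.03, 0.34 and 0.37 in control arteries 1 to 4. It was -1.06, -0.95, 0.25 and -1.11 in injured arteries 1 to 4. Has1 thus had more counts than Has2 in all controls and in injured artery 3, and fewer in the other 3 injured arteries. The difference of -1.03 did not pass (exact permutation test, p = 0.0571, two-sided, adjusted p = 0.0762). The ratio of Hapln1 to Hapln3, which rests on at most 7 counts of Hapln1, differed by -1.14 (exact permutation test, p = 0.486, two-sided).

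**Figure D3:**
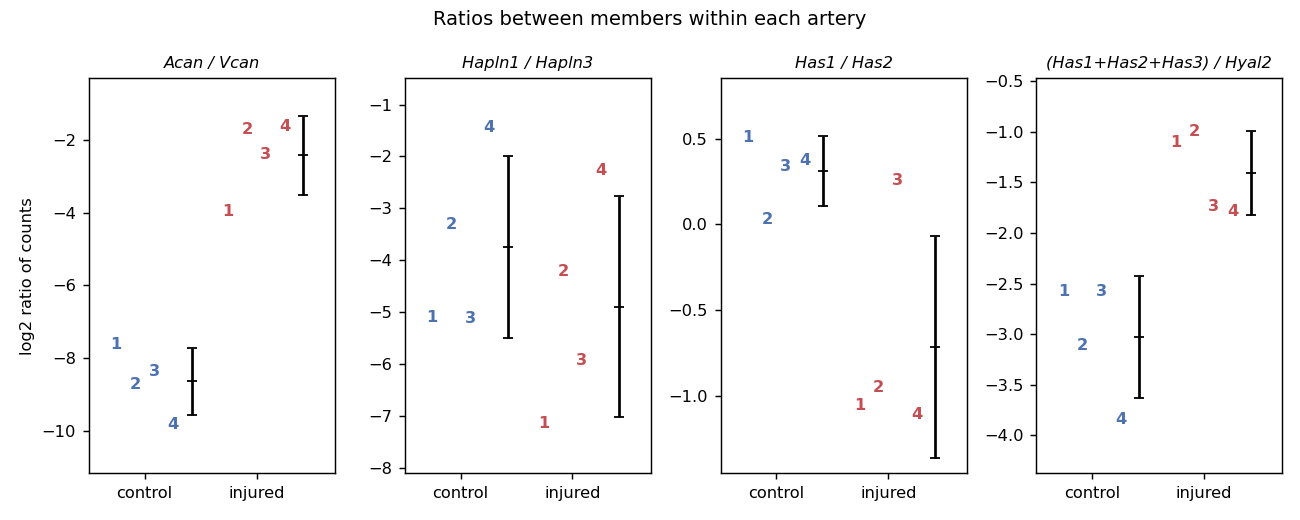
Log2 ratio of counts between members within each artery (0.5 counts added to each), for Acan to Vcan, Hapln1 to Hapln3, Has1 to Has2 and the 3 synthases to Hyal2. Digits are artery numbers, blue for control and red for injured, and bars show mean ± SD (n = 4). The first and last panels have no overlap, and injured artery 3 lies among the controls for Has1 to Has2.

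Around the members, 52 other genes of hyaluronan and lectican turnover were listed by role, of which 51 were in the table and 40 were tested. Of these, 9 were called, 6 higher and 3 lower after injury, or 22.5% of those tested against 10.9% of all genes. With the replicate number as a block, 5 of the 40 were called, against 8.27% of all genes. The list was chosen with earlier results of these data known, so these shares are a description only. With library totals in place of TMM factors, 8 were called higher and 1 lower, and with upper-quartile factors 7 and 1. Among the genes of hyaluronan degradation, Cemip and Gusb rose and Hyal1 fell, out of 7 tested. Cemip, a hyaluronan binding protein required for depolymerization of hyaluronan in fibroblasts, had 1.11 to 2.09 CPM in the controls and 11.5, 36.5, 13.6 and 15.5 CPM in injured arteries 1 to 4. Its log2 fold change was 3.56 (SE 0.44, edgeR adjusted p = 0.00149). Gusb, the lysosomal beta-glucuronidase, had a log2 fold change of 1.19 and was, like Cemip, without overlap between the groups.

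Hyal1 and Hyal3 lie close to Hyal2 in the GRCr8 annotation and overlap each other there. Hyal1, the lysosomal hyaluronidase, fell from 64.8 ± 24.7 to 30.1 ± 5.22 CPM (SD, n = 4 per group), with a log2 fold change of -1.11 (SE 0.32, edgeR adjusted p = 0.0475). With 1 artery left out at a time it was called in 1 of 8 fits, the one without control artery 4, at -1.36. Hyal3 had a log2 fold change of -0.70 (edgeR adjusted p = 0.0217) and did not reach a fold change of 2. All 3 hyaluronidases of the cluster thus had negative values, of which only that of Hyal1 was called. Of all 14359 genes tested, 6494 had a positive value. Hyal1 had 28.0 CPM in control artery 4, within the 25.8 to 37.6 CPM of the injured arteries. Since Hyal1 and Hyal3 overlap, their counts may not be independent. Spam1, the sperm hyaluronidase, was at 0 counts in all arteries.

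Among 9 tested hyaluronan receptors and binding proteins, only Tlr2 was called, an innate receptor that hyaluronan fragments can engage. Tlr4 of the same list had a log2 fold change of 0.96 (edgeR adjusted p = 0.0367) and did not reach a fold change of 2. Its groups did not overlap, with 4.80 to 7.14 CPM in the controls and 7.41 to 14.9 CPM after injury. Tlr2 rose from 3.40 ± 0.318 to 16.7 ± 4.06 CPM (SD, n = 4 per group), a log2 fold change of 2.30 (SE 0.22, edgeR adjusted p = 0.000544). When control artery 4 was left out, 3 of the list were called higher, where 12.3% of all genes tested were. These were Tlr2, Hmmr at 2.09 and Layn at 1.02. Control artery 4 had 6.12 CPM of Hmmr, within the 5.50 to 8.78 CPM after injury. Its Layn level, 36.1 CPM, was above the 18.1 to 23.8 CPM after injury. With all 8 arteries, Hmmr had 1.30 (edgeR adjusted p = 0.144) and Layn 0.34 (edgeR adjusted p = 0.657). Of the partners of Tnfaip6, Ptx3 was called higher, with a log2 fold change of 1.89, and Itih3, a heavy chain of the inter-alpha-inhibitor family, was called lower, with -1.88. Both had low levels, with at most 8.69 CPM in any artery, and Ambp, which encodes the light chain bikunin, had no counts in any artery. With 1 artery left out at a time, Ptx3 kept its call in 3 and Itih3 in 4 of 8 fits.

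Of 7 lectican proteases, Adamts4, an aggrecanase, was called. It had 6.05, 4.43, 4.02 and 1.25 CPM in control arteries 1 to 4 and 20.5, 23.9, 22.7 and 28.1 CPM in the injured arteries. All injured arteries were above all controls, and the log2 fold change was 2.59 (SE 0.42, edgeR adjusted p = 0.00504). The other 6 proteases, among them Adamts5 with 0.39 and Adamts1 with -1.06, did not pass the test. Of 5 matrix proteins that bind lecticans, Tnc, which encodes tenascin-C, was called higher with a log2 fold change of 4.97, and Fbln1, which encodes fibulin-1, was called lower with -1.25. With 1 artery left out at a time, Fbln1 was called in 2 of 8 fits. Tnr, the tenascin of the nervous system, had 97.0 CPM in control artery 4 and at most 12.3 CPM elsewhere. Its log2 fold change turned from -2.12 to 4.45 without that artery. In that fit Tnr was called higher (edgeR adjusted p = 0.0145), with at most 0.504 CPM in the remaining controls.

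None of 7 genes that supply UDP-sugars, of 2 tested linkers of CD44 to actin and of 1 tested other lectican was called. In edgeR's test, 3 of these 10 had an adjusted p under 0.05 without a fold change of 2. These were Ugdh, which makes UDP-glucuronic acid for the synthases, with a log2 fold change of 0.51, Ugp2 with -0.51 and Ezr, which encodes ezrin, with 0.75. Bcan, which encodes brevican, had the lowest log2 fold change of the tested list, -2.47 (edgeR adjusted p = 0.158), at levels of 9.49 CPM or less, and DESeq2 called it lower (DESeq2 adjusted p = 0.0480). Msn, which encodes moesin, was listed at 0 in all 8 libraries, as were 592 of 606 protein-coding genes of the X chromosome.

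**Figure D4:**
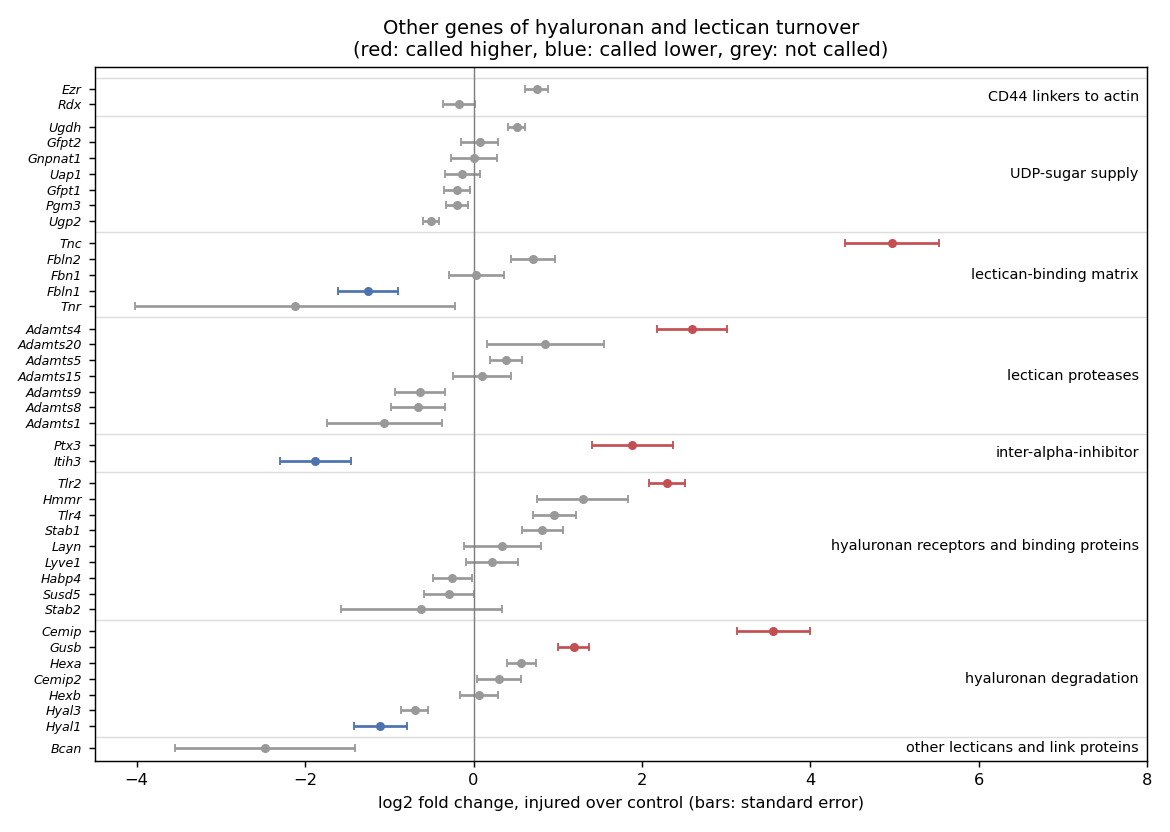
Log2 fold change (injured over control) with standard error of the 40 tested genes around the members, grouped by role. Red marks the 6 genes called higher, blue the 3 called lower and grey the others. Tnc at 4.97 and Cemip at 3.56 lie farthest to the right, and Hyal1 and Hyal3 lie on the left of the hyaluronidase group.

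Aggrecan is a defining gene of cartilage, so 12 further cartilage genes were examined. Of 10 tested, 4 were called higher after injury and 1 lower, where 8.31% and 2.57% of all genes tested were. The summed level of the list was 182 to 545 CPM in the injured arteries against 28.0 to 78.6 CPM in the controls. Most of the sum after injury came from 2 genes, Col11a1 and Comp. Col11a1, a chain of collagen XI, had 67.2 to 302 CPM after injury, and Comp, the cartilage oligomeric matrix protein, 48.9 to 176 CPM. Sox9, the transcription factor of chondrocytes, had a log2 fold change of 3.05 (SE 0.73, edgeR adjusted p = 0.0249). Matn3, a cartilage matrix protein, had a log2 fold change of 2.86 (SE 0.62, edgeR adjusted p = 0.0163). Col2a1, the collagen II chain, had 0.164 to 1.39 CPM in the controls and 0.674 to 6.95 CPM after injury and was not called, with edgeR adjusted p = 0.119, but it was called higher by DESeq2 and without control artery 4. Matn1 was at 0 in all 8 libraries. Col9a1 was called lower, with a log2 fold change of -2.01. Without control artery 4, 7 genes were called higher, where 12.3% of all genes tested were, and 1 lower. The additions were Col2a1, Col9a2 and Col9a3, of which Col9a2 had the highest value, 5.91. Control artery 4 had 11.5 CPM of Col9a2 and 19.7 CPM of Col9a3. These levels lay within the 5.86 to 26.8 and 8.85 to 29.8 CPM after injury, while controls 1 to 3 had at most 0.416 and 5.75 CPM. With all 8 arteries neither gene was called (edgeR adjusted p = 0.192 and 0.442). With 1 artery left out at a time, 3 to 8 genes of the list were called, and Sox9 and Col9a1 in 3 of 8 fits each. Whether cells with cartilage genes account for Acan was not tested.

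Other cell type lists moved with the groups as well. All 9 proliferation genes were called higher, with a summed level of 92.9 to 144 CPM against 11.2 to 20.2 CPM in the controls. Of 10 contractile smooth muscle genes, 7 were called lower, at 11506 to 18102 CPM against 18828 to 54585 CPM. That count was 9 without control artery 4 and between 0 (without injured artery 4) and 3 with any other artery left out. Of 9 skeletal muscle genes, 6 were called higher, at 320 to 1086 CPM against 109 to 332 CPM. Endothelial genes were split, with 3 called higher and 1 lower of 8 tested, as were those of adventitial fibroblasts, with 2 higher and 2 lower of 7 tested. The adipocyte, neuron and glia lists held no called gene with all 8 arteries in edgeR's test. Leaving out control artery 4 gave calls for 2 neuron genes and 4 glia genes, all higher, where 12.3% of all genes tested were. The 2 neuron genes, Syt1 and Uchl1, had negative log2 fold changes with all 8 arteries, -2.53 and -1.11. Control artery 4 had 1887 and 1485 CPM of them, against at most 300 and 621 CPM after injury. Those of the 4 glia genes were positive in both fits. DESeq2 called 1 adipocyte gene lower. The part of these cell types in the results for the members was not tested.

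The genes whose pattern over the 8 arteries was most like that of Acan were ranked by the root mean square difference of log2 CPM, centred per gene. The 5 nearest were Ptprv at 0.785, Ccl9 at 0.899, Clec2dl1 at 0.899, Mmp9 at 0.929 and Lilrb4 at 0.930 log2 units. These genes share the difference between the groups with Acan, and the measure mostly reads that difference. Among the members, Has2 came nearest, at rank 665, and Vcan was at rank 3826.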

How the data were processed

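Carotid artery mRNA was sequenced from 4 injured and 4 control rat arteries. The authors deposited raw read counts per gene symbol, without normalization. The submitters' processing notes name HISAT2 2.0.4, while the counting tool, genome build and strand are not given in the sources used here. The members and lists were chosen with earlier results of these data known.

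Genes were filtered with filterByExpr of edgeR 4.0.16 (R 4.3.3), which left 14359 of 37209. The groups were compared by its quasi-likelihood test with TMM factors and no covariate. A call needed an adjusted p under 0.05 and more than a 2-fold difference. SEs were derived from the F statistic. The floor of 3 counts uses total counts, 2 counts were added before log2 CPM and 0.5 before ratios. The labels do not say which rat an artery came from, so p-values measure the spread between these arteries. By the study's design an injured and a control artery may come from the same rat. Apart from the fits with the replicate block, all tests ignored this and treated the arteries as independent. On simulated counts with 200 genes changed 4-fold, edgeR recovered 64% among 14128 genes, with 13 false calls, and DESeq2 85.5% among 14322, with 58. All other genes were left unchanged there, and the simulated arteries had no pairing and no outlying artery. These rates may therefore not hold for the real arteries.

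Other settings tried were DESeq2 1.42.0, other scaling (RLE, upper-quartile, totals), no filter or a minimum of 10 counts per artery, calls by adjusted p only, testing against 2-fold, the replicate block and omission of each artery. Omission of control artery 4 together with injured artery 3 was added after seeing the data. Named genes were the members, the called genes by role, the 2 largest values per direction, genes at 0, abundant or outlying markers, and the 5 genes most like Acan. Hyal3, Ugdh, Ugp2, Ezr, Adamts1, Adamts5, Mfge8, Sox9, Matn3, Col2a1, Col9a1, Col9a2, Col9a3, Hmmr, Layn and Tlr4 were picked after their values were seen. Symbols without a match were sought among GRCr8 synonyms (Cemip2, Snorc, Adgre1), and promoter sequences are from RefSeq for GRCr8.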

Additional observations from a re-analysis of the deposited data

Results flagged for a closer look

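In 48 groups of 4 arteries, covering the CPM of the members, the sums of the marker lists and the 4 ratios, 4 held 1 artery far from the rest, with a gap that took a larger share of the whole range than Dixon's 95% limit. About 1 in 20 groups, here 2.4, would do so by chance. For Vcan this was control artery 4, with a share of 0.839 (222 CPM against 576 CPM in the nearest control), and for the summed sympathetic neuron markers, with 0.9996 (12539 against 14.8 CPM). Injured artery 3 was apart for the same neuron markers, with 0.942 (3718 against 240 CPM), and for the log2 ratio of Has1 to Has2, with 0.887 (0.25 against -0.95). Whether the neuron markers bear on Vcan or on the synthases was not tested.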

How the results depend on the processing

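The number of all genes called was 1562. It was 1007 with at least 10 counts in every sample, 661 against a fold change of 2, 2468 with the adjusted p alone, 2473 without control artery 4 and injured artery 3, and 1142 to 2398 with one artery left out, the highest without control artery 4. Of the members, 2 were called, and 1 with no filter (Has2 lost), with at least 10 counts in every sample (Acan untested for its 3 counts in control artery 4), against a fold change of 2 and with the replicate block (Has2 lost in both), and 1 to 3 with one artery left out. Of the genes by role, 9 were called, and 4 against a fold change of 2, 5 with the replicate block, 14 with the adjusted p alone and 5 to 12 with one artery left out, the lowest without control artery 3 or injured artery 2.

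Acan was called in all 17 alternatives that tested it. Cd44 was called only without control artery 4, alone or with injured artery 3. The log2 fold change of Vcan turned to -0.0057 with DESeq2, -0.0012 with RLE factors, -0.0033 with no filter and -0.12 without both arteries, and lay between -0.24 and 0.14 with one artery left out. That of Tnfaip6 turned to -0.014 without both arteries and lay between -0.30 and 0.63 with one left out. Neither was called in any fit. Library totals only moved the median of all genes by 0.18. Arteries with the same number cannot be taken as pairs from the labels, and the deviations of pairs 1 to 4 correlated at 0.301, 0.450, -0.520 and -0.416, with only control artery 2 closest to its own number. With the replicate block, Has2 had 1.80 (adjusted p = 0.0811 in edgeR's test), and the differences of the ratios, 6.21 for Acan to Vcan and 1.62 for the synthases to Hyal2, had an exact p of 0.125, the smallest that 4 pairs allow. Without both arteries they were 5.80 and 1.46 (exact p = 0.1), and with one artery left out 5.82 to 6.73 and 1.35 to 1.77 (exact p = 0.0571), again the smallest possible, so these p-values say nothing about stability. Why these values moved was not tested. Genes near the floor, such as Hapln1, are limited by depth.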

Other observations

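Of 606 protein-coding genes that GRCr8 places on the X chromosome and whose symbol was in the table, 592 (97.7%) had no count in any artery, against 1541 of 16016 autosomal genes (9.62%). Msn and Cybb are among them, so that their 0 is no measurement of the artery. The cause was not tested.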
